A study of Homo sapiens with 23 samples.

Results

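Day 7 was compared with day 5 of the directed differentiation of H1-hESC cells, an established human embryonic stem cell line, into cardiomyocytes. The comparison takes the 3 libraries labelled day 7 and the 3 labelled day 5, 6 of the 23 libraries of a time course with 8 days, and covers all genes. Total RNA of bulk cultures was sequenced after removal of ribosomal RNA, and the deposited values are read counts per gene. Both groups are the same wild-type line with no added treatment in the labels, differ in day only, and carry the label "Cardiac progenitors"; an undifferentiated control at these days was not analysed here. The labels do not say whether replicates were separate cultures, so that the p-values refer to spread between libraries, which may be technical. The test behind the calls estimated this spread over all 23 libraries and not over the 6 compared alone. It is therefore not the spread of the day 5 libraries by themselves.

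During cardiac differentiation, mesoderm gives rise to progenitors that express early heart transcription factors, and these then build sarcomeres, the contractile units. A sarcomere sets thick filaments of myosin against thin filaments of actin, troponin and tropomyosin, which are anchored at the Z-disc. Several sarcomere and energy genes exist as paralogs: MYH6 encodes the alpha and MYH7 the beta myosin heavy chain, MYL4 and MYL3 encode the atrial and the ventricular essential light chain, and CKB and CKM the brain and the muscle creatine kinase.

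Total counts were 8015159, 13679686 and 4330334 in day 5 replicates 1, 2 and 3, and 4506749, 7161150 and 8889988 at day 7. Levels are given as CPM, which are counts scaled to the effective library size. The day 5 libraries differed from one another far more than those of day 7. Pearson correlations across genes were 0.960, 0.967 and 0.907 within day 5, the lowest between replicates 2 and 3, and 0.988 to 0.992 within day 7. Of 4307 genes with a mean of at least 50 CPM at day 5, 3123 differed at least 2-fold between the highest and the lowest library (median ratio 2.61), against 17 of 3868 such genes at day 7 (median ratio 1.15). This spread followed base composition. Across 11925 genes the log2 difference of day 5 replicate 2 over replicate 3 correlated with GC content at r = -0.826, a description over genes that share both libraries. Its median was 1.36 among the genes lowest in GC (the first of 4 groups of equal size) and -1.46 in the group highest in GC. The change from day 5 to day 7 had r = 0.005 with GC content over 21987 genes. Day 5 replicates 2 and 3 deviated from replicate 1 in opposite directions along GC content (r = -0.787 and 0.587). A linear r near 0 therefore does not show whether this spread entered the change. The part of this spread in single results was not tested, and the fits that bear on it stand beside the results they change. They are the fit of only the 6 libraries, the fits with 1 library left out and, chosen after seeing the data, a fit with GC and gene length trends removed. On both days every library had at least 25 CPM of the progenitor genes PDGFRA, ISL1, GATA4 and NKX2-5, and cardiac troponin T (TNNT2) stood at 461, 417 and 639.9 CPM at day 5 and 1737, 2035 and 1886 at day 7, so the cells of both labels expressed progenitor and muscle genes.

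**Figure D1:**
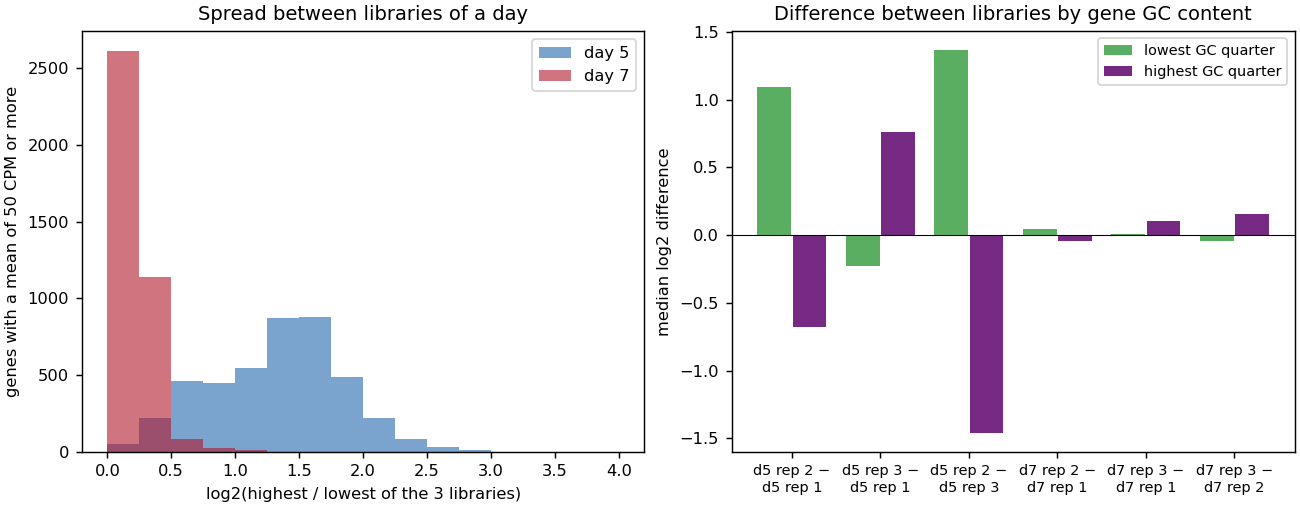
Spread between libraries of a day. The left panel counts genes with a mean of at least 50 CPM by log2 of their highest over lowest library, for day 5 and day 7; the medians are 2.61 and 1.15 as ratios. The right panel gives the median log2 difference between pairs of libraries (d, day; rep, replicate) for the groups of genes lowest and highest in GC content (1 of 4 each), which reach 1.36 and -1.46 for day 5 replicate 2 over replicate 3 and stay near 0 within day 7.

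Among called genes that reached 20 CPM and whose libraries did not overlap, genes of the contractile apparatus made up many of the 15 largest rises, and the 3 markers of the comparison, MYH7, MYL3 and CKM, were among the first 4. MYH7 (ENSG00000092054, chromosome 14, 23412740 to 23435660, minus strand, in GRCh38) stood at 2.28, 1.46 and 2.73 CPM at day 5 and 267, 291 and 315 at day 7 (log2 change 7.16, SE 0.44, adjusted p = 1.8e-11). MYL3 (ENSG00000160808, chromosome 3, 46835111 to 46882178, minus strand) stood at 3.12, 3.83 and 6.21 CPM at day 5 and 606, 761 and 799 at day 7 (log2 change 7.42, SE 0.31, adjusted p = 2.01e-14). CKM (ENSG00000104879, chromosome 19, 45306413 to 45322875, minus strand) stood at 2.52, 1.32 and 3.73 CPM at day 5 and 239, 349.8 and 350.5 at day 7 (log2 change 7.09, SE 0.40, adjusted p = 1.8e-11). All day 7 libraries lay above all day 5 libraries for these genes, and these 3 calls held without each library in turn and with only the 6 libraries. In bulk samples, fewer cells of a type and less RNA per cell cannot be told apart, which holds for every change given here.

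In all, edgeR's quasi-likelihood test called 1184 of 22245 genes higher at day 7 (5.32%) and 1117 lower (5.02%), or 2301 in either direction (10.3%), at a Benjamini-Hochberg adjusted p under 0.05, and 5197 genes passed an unadjusted p of 0.05. Of the calls, 1069 and 830 were at least 2-fold, and 529 and 179 at least 4-fold. All day 7 libraries lay above all day 5 libraries in 2381 genes (10.7%) and below them in 1883 (8.46%), and 1150 of the genes called higher and 946 of those called lower were among these. A call held without each of the 6 libraries in turn for 675 genes higher (3.03%) and 336 lower (1.51%). Without day 5 replicate 2 the test called 2227 higher, without day 5 replicate 3 it called 1808 lower, and without day 7 replicates 1, 2 and 3 it called 583, 432 and 544 lower. With only the 6 libraries it called 528 higher and 227 lower among 15989 genes, 525 and 225 of them shared with the calls above. The share of higher calls was 51.5%, and 67.9% with library totals alone as the scaling, which moved the median log2 change of all tested genes from -0.09 to 0.05.

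Within that limit of 20 CPM the largest rise was in CGA (ENSG00000135346, chromosome 6, 87085498 to 87095106, minus strand), the common alpha chain of the glycoprotein hormones. It stood at 0.721, 0.279 and 0 CPM at day 5 and 83.2, 141 and 142 at day 7 (log2 change 8.31, SE 0.53, adjusted p = 3.76e-11). CGA thus went from under 1 CPM in every day 5 library to above 80 in every day 7 library. The other large rises within this limit fell outside muscle in part. They were in A2M (6.71), LAMA4 (6.27), MASP1 (6.25) and OIT3 (5.95), which encode alpha-2-macroglobulin, a protease inhibitor; the laminin alpha-4 chain; a serine protease of the lectin pathway of complement; and a zona pellucida domain protein. The rest were MYOM1 (6.13), MYBPC3 (6.0), KCNIP2 (5.4), RRAD (5.27), CAPN3 (5.17), NPPA (5.15) and CSRP3 (5.08). MASP1 stood at 4.45, 4.67 and 2.48 CPM at day 5 and 268, 323 and 328 at day 7, and OIT3 at 4.21, 3.69 and 3.97 CPM at day 5 and 256, 227 and 252 at day 7. Each day 7 library of both genes was far above every day 5 library.

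With the same limit at day 5 the largest fall was in GAP43 (ENSG00000172020, chromosome 3, 115623510 to 115721490, plus strand), which encodes a growth-associated membrane protein of nerve endings. It stood at 42.8, 67.1 and 37.0 CPM at day 5 and 3.33, 1.45 and 1.35 at day 7 (log2 change -4.68, SE 0.33, adjusted p = 2.34e-10). HOXB1 (ENSG00000120094, chromosome 17, 48528526 to 48531011, minus strand), the most 3′ gene of the HOXB cluster, stood at 70.2, 55.3 and 83.9 CPM at day 5 and 4.90, 2.77 and 3.94 at day 7 (log2 change -4.19, SE 0.39, adjusted p = 3.94e-08). For both genes the lowest day 5 library was above 10 times the highest day 7 library. The other large falls within this limit were in DDR2 (-3.53), VRTN (-3.14), KCNJ3 (-3.04), SMOC2 (-2.95), CCND2 (-2.79), PTGIS (-2.73), LRP1B (-2.68), SVEP1 (-2.67), SLC7A3 (-2.64), S100A14 (-2.50), ITLN2 (-2.47), ACKR3 (-2.46) and E2F1 (-2.44). Among them DDR2 is a collagen receptor, SMOC2 and SVEP1 are secreted or matrix proteins, PTGIS is prostacyclin synthase, SLC7A3 a cationic amino acid transporter, and ACKR3 a chemokine receptor. DDR2 stood at 13.9, 79.7 and 8.69 CPM at day 5 and 5.10, 2.65 and 1.76 at day 7, so that its size rests on day 5 replicate 2; its log2 change was -1.85 without that library. KCNJ3, a subunit of the atrial inward rectifier channel, stood at 11.4, 53.0 and 12.9 CPM at day 5 and 5.69, 3.01 and 1.45 at day 7 and had a log2 change of -1.82 without day 5 replicate 2.

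**Figure D2:**
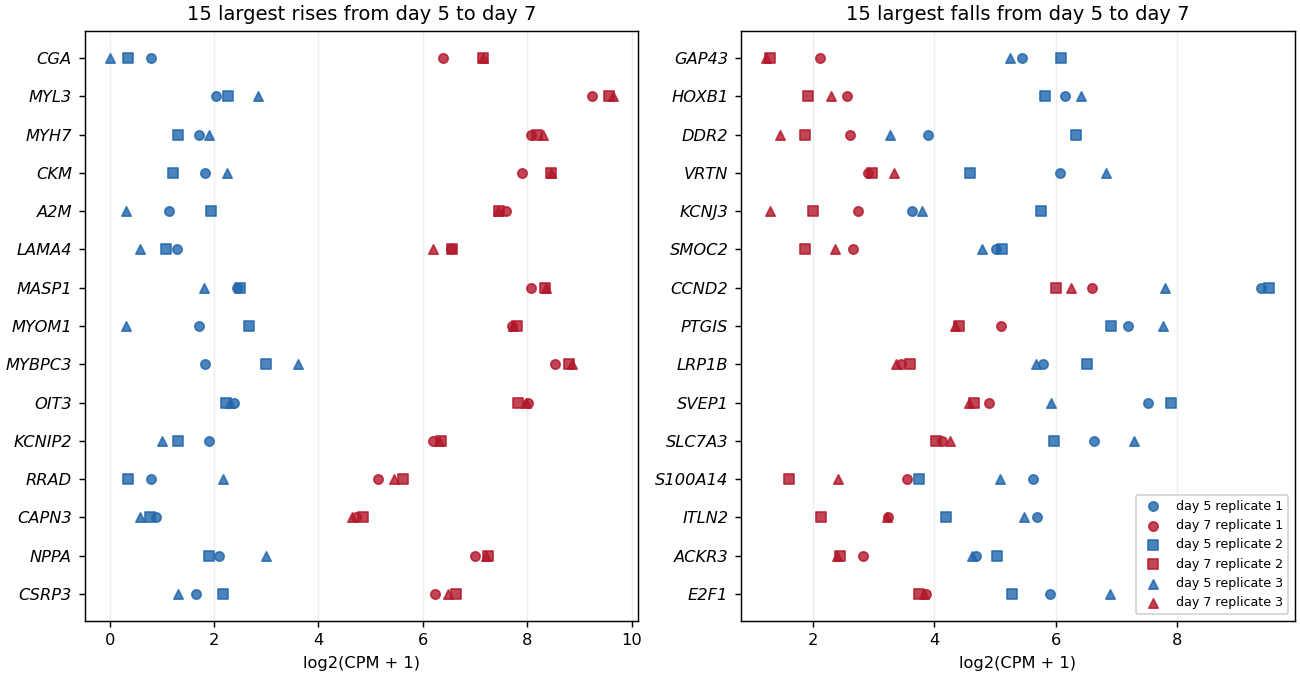
The 15 largest rises and the 15 largest falls from day 5 to day 7 among called genes that reached 20 CPM on 1 of the days and whose libraries did not overlap. Each point is 1 library on a log2(CPM + 1) axis, blue for day 5 and red for day 7, with the replicate by shape. Among the rises the day 7 points lie close together, while the day 5 points of MYOM1, RRAD and MYBPC3 are spread. Among the falls the points of DDR2, VRTN and KCNJ3 are spread most at day 5, and those of S100A14 on both days.

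The stretch before the annotated start of 3 of these genes is shown because their counts rose more than 30-fold and each codes for a heart or muscle protein. The sequences are the 250 bases upstream of the RefSeq start, 5′ to 3′ on the gene's strand in GRCh38.p14. They are chr19:45322876-45323125 (minus) for CKM, chr11:47352703-47352952 (minus) for MYBPC3 and chr1:11847784-11848033 (minus) for NPPA. Capitals mark matches on either strand to GATAA (the core bound by GATA factors), to TATAAA (the box near many starts), to CATTCC (the core bound by TEAD factors), the MEF2 motif or the CArG box bound by SRF.
CKM: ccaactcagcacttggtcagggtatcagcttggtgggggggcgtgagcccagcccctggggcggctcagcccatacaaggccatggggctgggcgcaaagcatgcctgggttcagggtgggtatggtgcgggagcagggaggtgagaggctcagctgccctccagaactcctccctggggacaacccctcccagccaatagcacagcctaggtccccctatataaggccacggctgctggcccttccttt
MYBPC3: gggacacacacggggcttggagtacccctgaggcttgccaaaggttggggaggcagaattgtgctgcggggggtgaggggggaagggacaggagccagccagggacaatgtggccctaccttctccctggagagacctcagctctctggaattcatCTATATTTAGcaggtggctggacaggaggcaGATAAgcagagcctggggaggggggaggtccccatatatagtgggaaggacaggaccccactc
NPPA: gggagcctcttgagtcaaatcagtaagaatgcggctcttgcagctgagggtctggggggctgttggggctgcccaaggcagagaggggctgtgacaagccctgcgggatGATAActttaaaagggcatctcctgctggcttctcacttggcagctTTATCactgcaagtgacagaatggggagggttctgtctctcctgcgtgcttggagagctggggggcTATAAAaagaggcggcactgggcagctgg
CKM had no match to these motifs in the window and 2 sites of CANNTG, the E-box, which reads the same on both strands. MYBPC3 had a MEF2 match from -94 to -85 and a GATAA from -63 to -59, counted from the start. NPPA had a GATAA at -141 to -137, its reverse complement TTATC at -95 to -91, and a TATAAA at -29 to -24. Over all 35116 starts in the table, 20.4% of windows held GATAA, 10.7% held TATAAA, 11.9% held the TEAD core, 2.80% the MEF2 motif, 1.16% the CArG box and 61.8% CANNTG. A gene was counted when any of its starts held the motif. GATAA was in 35.2% of the 332 matched genes that rose at least 4-fold, in 34.0% of the 106 that fell at least 4-fold and in 19.3% of 13973 tested genes. The MEF2 motif was in 8.73%, 1.89% and 2.56% of these, the CArG box in 4.22%, 0.943% and 1.52%, and CANNTG in 74.4%, 68.9% and 62.6%. TATAAA was in 21.1%, 11.3% and 9.35% of the same groups, and the TEAD core in 20.5%, 16% and 13.3%. These shares are descriptions of letters, not of bound sites. MYH7 and MYL3 are not shown here.

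Of the thick filament genes and their regulators, 12 of 15 tested members rose and none fell (0 at an unadjusted p under 0.05, 0 by DESeq2), with a median log2 change of 2.32 against -0.09 over all tested genes. The 3 that did not pass included MYL2, the ventricular regulatory light chain, with 2 counts over the day 7 libraries and 0 at day 5. MYOM1, myomesin of the M-band, stood at 2.28, 5.37 and 0.248 CPM at day 5 and 207, 223 and 211 at day 7. MYBPC3, cardiac myosin-binding protein C, stood at 2.52, 6.97 and 11.2 CPM at day 5 and 368, 443 and 463 at day 7. For both genes each day 7 library was above 30 times the highest day 5 library. MYH6 rose from an already high level: 718, 509 and 1026 CPM at day 5 and 4040, 5553 and 4856 at day 7 (log2 change 2.68, SE 0.37, adjusted p = 1.29e-05). The atrial light chains MYL7 and MYL4, the M-band gene MYOM2 and TTN, titin, rose by 2.23, 2.08, 2.32 and 1.79 on the log2 scale, and the myosin light chain kinase MYLK3 by 1.21. MYBPHL rose at low level (2.40, mean 2.25 CPM at day 7). Summed over the list, the level was 2441, 1716 and 3704 CPM at day 5 and 12200, 14510 and 14460 at day 7. With only the 6 libraries 9 of 13 tested members passed. MYBPHL and MYLK3 did not pass with only the 6 libraries (adjusted p = 0.0724 and 0.107), MYBPHL without day 5 replicate 1 (0.102), and MYBPHL without day 5 replicate 2 (0.0635). MYBPHL did not pass without day 7 replicate 1 (adjusted p = 0.055), and MYBPHL without day 7 replicate 3 (0.0709).

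Among thin filament genes 13 of 18 tested members rose and 1 fell, with a median log2 change of 1.71. ACTA1, skeletal muscle actin, stood at 9.01, 6.48 and 19.1 CPM at day 5 and 141, 247 and 265 at day 7 (log2 change 4.30, SE 0.40, adjusted p = 3.95e-08). TNNC1, the slow and cardiac troponin C, stood at 47.9, 34.6 and 104 CPM at day 5 and 664, 812 and 858 at day 7 (log2 change 3.66, SE 0.32, adjusted p = 1.01e-08). Neither gene's libraries overlapped between days. The other large rises were in TNNC2 (4.29), LMOD2 (3.92), TMOD1 (3.16) and ACTA2 (2.91): fast troponin C, leiomodin-2 and tropomodulin-1, which act at filament pointed ends, and smooth muscle actin. The cardiac troponins TNNT2 and TNNI3, the slow TNNI1 and cardiac actin ACTC1 rose by 1.90, 1.77, 1.65 and 1.58, and TPM1, alpha-tropomyosin, by 0.84. ACTC1 stood at 1890, 1068 and 3689 CPM at day 5 and 6367, 6379 and 7148 at day 7. TPM3, a tropomyosin with many non-muscle forms, fell (log2 change -0.79, adjusted p = 0.0406). Reads of near-identical actin and tropomyosin paralogs can be split or lost in counting, so single levels of these genes are uncertain. TPM3 and TPM1 did not pass with only the 6 libraries (adjusted p = 0.382 and 0.172), TPM3 without day 5 replicate 1 (0.308), and TPM3 without day 7 replicate 1 (0.173). TPM3 did not pass without day 7 replicate 2 (adjusted p = 0.168), and TPM3 without day 7 replicate 3 (0.125).

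At the Z-disc and costamere 12 of 20 tested members rose and none fell (1 at an unadjusted p under 0.05, 0 by DESeq2), with a median log2 change of 2.08. MYPN, myopalladin, had 0 counts in every day 5 library and 154 over the day 7 libraries (6.87, 6.5 and 6.74 CPM), which is at least 59.5-fold higher when day 5 is set to 3 counts in all. CSRP3, the muscle LIM protein, stood at 2.16, 3.48 and 1.49 CPM at day 5 and 74.5, 98.4 and 88.0 at day 7 (log2 change 5.08, SE 0.37, adjusted p = 3.51e-10). ACTN2, sarcomeric alpha-actinin, stood at 28.7, 33.5 and 22.1 CPM at day 5 and 262, 301 and 301 at day 7 (log2 change 3.35, SE 0.29, adjusted p = 1.12e-08). The groups did not overlap for either gene. CRYAB, a small heat shock protein that binds desmin and titin, TCAP, the titin cap, and LDB3 rose by 4.22, 3.32 and 3.24. DES, desmin, rose from 11.4 ± 3.97 to 41.1 ± 5.01 CPM (mean ± SD, n = 3 libraries a day). FLNC, PDLIM3, XIRP1 and the 5 other members that were not called had log2 changes between -0.81 and 2.28. Of this list 1 member fell without day 5 replicate 2, and 1 each with voom with sample weights and with GC and length trends removed.

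Of the genes for sarcomere assembly and muscle protein turnover, 13 of 15 tested members rose (median log2 change 3.57, or 2.07 with the members at 0 counts on day 5 set at their bound). CAPN3, a muscle calpain, stood at 0.841, 0.697 and 0.497 CPM at day 5 and 25.5, 27.9 and 23.9 at day 7 (log2 change 5.17, SE 0.41, adjusted p = 1.67e-09). HSPB7, a cardiac small heat shock protein, stood at 14.3, 8.85 and 27.3 CPM at day 5 and 243, 232 and 252 at day 7 (log2 change 3.89, SE 0.35, adjusted p = 1.69e-08). Both were at a much higher level in every day 7 library. KLHL41, a Kelch protein of muscle, and TRIM63, the ubiquitin ligase MuRF1, rose by 4.60 and 3.94. HSPB3 and KBTBD13 were at 0 counts at day 5 and at least 4.64-fold and 3.09-fold higher at day 7, both under 1 CPM, and KLHL40 went from 1 count to 0.785, 1.32 and 0.623 CPM. The myosin chaperone UNC45B and the methyltransferase SMYD1, already above 150 CPM at day 5, rose by 1.24 and 1.19. UNC45B and SMYD1 did not pass with only the 6 libraries (adjusted p = 0.0607 and 0.0733). In that fit 8 of 12 tested members passed, with a median of 1.96.

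Levels of paralogs were set side by side per kilobase of annotated exon. That length joins the exons of all annotated transcripts of a gene, 2863 bases for MYL3, and can exceed the length of the transcript expressed. The size of a share therefore depends on these lengths, which are the same on every day. MYH7 made up 0.350% ± 0.0313 (SD, n = 3) of the MYH6 and MYH7 total at day 5, 6.87% ± 0.793 at day 7 and 91.5% ± 4.06 at day 28. MYL3 made up 0.437% ± 0.20 of MYL3 and MYL4 at day 5 and 12.9% ± 1.07 at day 7. CKM made up 1.6% ± 0.235 of CKM and CKB at day 5 and 68.3% ± 5.67 at day 7. In these 3 pairs the shares did not overlap between days, and on this scale CKM changed from the minor to the major form. NPPA made up 4.16% ± 0.919 of the 2 natriuretic peptide genes at day 5 and 59.3% ± 4.85 at day 7. TNNI3 made up 5.78% ± 2.16 of TNNI1 and TNNI3 at day 5 and 5.72% ± 0.362 at day 7, so their ratio moved by less than the spread at day 5 while both genes rose. ACTC1 made up 96.7% ± 1.21 of 3 muscle actins at day 5 and 91.3% ± 0.728 at day 7, while ACTA1 went from 0.620% ± 0.0724 to 3.57% ± 0.975. COX6A2, the heart and muscle form of a cytochrome oxidase subunit, had 1 count at day 5 and made up 15.7% ± 4.87 of COX6A1 and COX6A2 at day 7. With 3 libraries against 3, an exact permutation test of a share cannot go below p = 0.10, so no p is given.

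**Figure D3:**
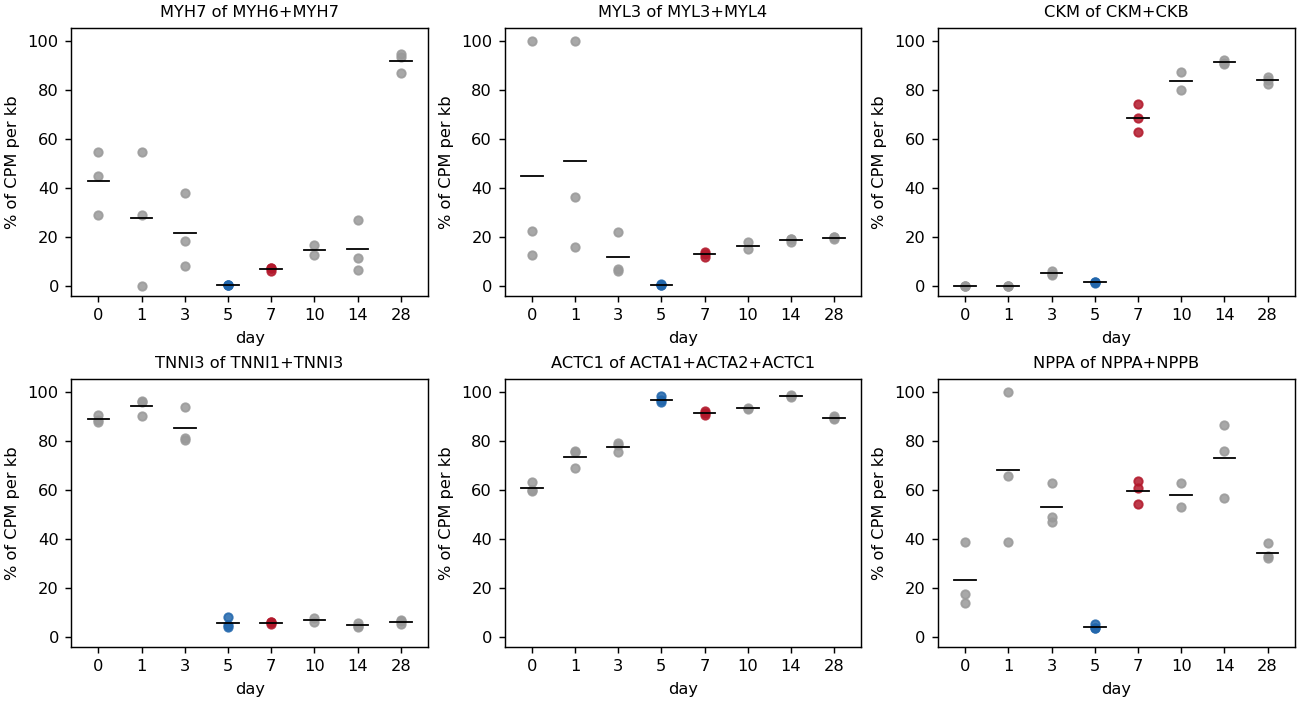
Share of 1 paralog in the total of its paralogs by day, in % of CPM per kilobase of exon. Points are libraries (blue day 5, red day 7, grey other days) and bars are means; before day 5 several of these genes are near 0 CPM and their shares are poorly determined. From day 5 to day 7 the shares of MYH7, MYL3, CKM and NPPA rise and that of TNNI3 stays near 5.7%.

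Of the genes of calcium release and uptake in the sarcoplasmic reticulum, 10 of 18 tested members rose and none fell (0 at an unadjusted p under 0.05, 0 by DESeq2), with a median log2 change of 1.18, or 1.92 without day 5 replicate 2. SRL, sarcalumenin, stood at 3.12, 3.42 and 4.72 CPM at day 5 and 113, 106 and 112 at day 7 (log2 change 4.92, SE 0.28, adjusted p = 7.01e-12). TRDN, triadin, which anchors calsequestrin at the release channel, stood at 1.68, 6.48 and 2.98 CPM at day 5 and 77.7, 90.8 and 74.9 at day 7 (log2 change 4.37, SE 0.38, adjusted p = 1.11e-08). Both genes were at least 10 times higher in every day 7 library than in any day 5 library. The calsequestrin CASQ1, the kinase subunit CAMK2B and HRC, which binds calcium in the lumen, rose by 4.21, 3.49 and 2.86. CASQ2, the cardiac calsequestrin, had 2 counts at day 5 and 0.589, 1.08 and 1.04 CPM at day 7. PLN, phospholamban, stood at 40.2, 86.9 and 92.1 CPM at day 5 and 272, 306 and 283 at day 7 (log2 change 1.98, SE 0.28, adjusted p = 2.17e-05). RYR2, the release channel, and ATP2A2, the calcium pump, were at substantial levels on both days and rose by 1.32 and 1.03. RYR2 and ATP2A2 did not pass with only the 6 libraries (adjusted p = 0.141 and 0.151), and RYR2 and CASQ2 without day 5 replicate 1 (0.0843 and 0.0597). CASQ2 did not pass without day 5 replicate 2 (adjusted p = 0.0605), CASQ2 without day 7 replicate 2 (0.0738), and CASQ2 without day 7 replicate 3 (0.0731). CASQ2 had too few counts to be tested with only the 6 libraries.

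Among surface ion channels and exchangers 9 of 23 tested members rose and 1 fell, KCNJ3 (median log2 change 0.83, or 1.36 without day 5 replicate 3). SLC8A1, the sodium-calcium exchanger, stood at 73.4, 164 and 82.9 CPM at day 5 and 660.1, 818 and 735 at day 7 (log2 change 2.79, SE 0.30, adjusted p = 3.99e-07). CACNA1C, the pore of the cardiac L-type calcium channel, stood at 18.0, 19.0 and 20.4 CPM at day 5 and 57.9, 75.2 and 62.8 at day 7 (log2 change 1.77, SE 0.25, adjusted p = 2.02e-05). The calcium channel genes CACNB2 and CACNA1D and the potassium channel genes KCNJ5 and KCNJ2 rose by 2.37, 2.16, 1.90 and 1.86, KCNJ2 at under 2 CPM. HCN4, the main pacemaker channel, stood at 31.6, 19.3 and 64.3 CPM at day 5 and 73.4, 68.4 and 71.3 at day 7 and was not called (log2 change 0.91, adjusted p = 0.0565). KCNIP2, an auxiliary subunit of potassium channels and outside this list, stood at 2.76, 1.46 and 0.993 CPM at day 5 and 72.0, 80.2 and 77.9 at day 7. KCNJ2 did not pass with only the 6 libraries (adjusted p = 0.0832), KCNJ2 without day 5 replicate 1 (0.166), and KCNJ2 without day 7 replicate 1 (0.0585). KCNJ2 did not pass without day 7 replicate 2 (adjusted p = 0.102), and KCNJ2 without day 7 replicate 3 (0.0725).

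Of the intercalated disc list 3 of 14 tested members rose and 1 fell, against 5.32% and 5.02% of all genes. Its median log2 change of 0.01 rested on day 5 libraries that differ in opposite ways: it was 0.86 without day 5 replicate 2 (4 higher, 0 lower) and -0.33 without day 5 replicate 3 (3 higher, 2 lower). The connexin gene GJA3 stood at 0.240, 0.767 and 0 CPM at day 5 and 12, 12.5 and 10.8 at day 7 (log2 change 4.65, SE 0.42, adjusted p = 2.42e-08). GJA1, connexin 43, stood at 157, 436 and 76.7 CPM at day 5 and 61.2, 47.2 and 55.8 at day 7 (log2 change -2.03, SE 0.45, adjusted p = 0.00373). GJA1 thus fell while GJA3, GJA5 (2.7) and CTNNA3, alpha-T-catenin (2.28), rose. The 10 other members, among them the desmosome genes DSP, DSG2 and PKP2, were not called. GJA1 did not pass without day 5 replicate 2 (adjusted p = 0.0607).

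Of the natriuretic peptides and secreted heart factors 4 of 8 tested members rose. NPPA, which encodes atrial natriuretic peptide, stood at 3.24, 2.72 and 6.95 CPM at day 5 and 127, 152 and 147 at day 7 (log2 change 5.15, SE 0.38, adjusted p = 5.82e-10). CORIN, the protease that cleaves its precursor, stood at 17.5, 29.9 and 10.7 CPM at day 5 and 155, 186 and 161 at day 7 (log2 change 3.08, SE 0.35, adjusted p = 7.36e-07). NPR3, the clearance receptor, and NRG1, neuregulin, rose by 2.03 and 1.07. NPPB, brain natriuretic peptide, stood at 51.5, 31.4 and 123 CPM at day 5 and 46.3, 62.6 and 79.4 at day 7 and was not called (log2 change -0.11, adjusted p = 0.923). Day 5 replicate 3 was the highest of the 6 libraries for NPPB, and without it the log2 change was 0.61. NRG1 did not pass with only the 6 libraries (adjusted p = 0.15).

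In the list of cardiac transcription factors 9 of 28 rose (median log2 change 0.78). IRX4, a homeobox factor of the ventricle, had 1 count over the day 5 libraries and stood at 18.2, 14.5 and 14.7 CPM at day 7. ESRRG, an orphan nuclear receptor, stood at 3.85, 7.04 and 1.99 CPM at day 5 and 24.1, 27.9 and 21.9 at day 7 (log2 change 2.41, SE 0.32, adjusted p = 8.58e-06). NKX2-5, an early cardiac homeobox factor, stood at 46.9, 33.9 and 173 CPM at day 5 and 248, 262 and 299 at day 7 (log2 change 1.69, SE 0.40, adjusted p = 0.00666). IRX4 and ESRRG did not overlap between days; for NKX2-5 the groups were apart as well but day 5 replicate 3 was about 5 times replicate 2. HOPX, IRX1 and IRX5 rose by 1.98, 1.32 and 1.31. TBX5, a factor of the first heart field, stood at 52.1, 67.1 and 75.7 CPM at day 5 and 67.1, 70.8 and 57.5 at day 7 (log2 change 0.00, adjusted p = 0.998), and GATA4 at 274, 201 and 568 CPM at day 5 and 221, 222 and 227 at day 7 (log2 change -0.64, adjusted p = 0.166); neither was called. NKX2-5 and IRX1 did not pass with only the 6 libraries (adjusted p = 0.0853 and 0.188), and NKX2-5 and IRX1 without day 5 replicate 1 (0.0529 and 0.114). IRX1 did not pass without day 5 replicate 2 (adjusted p = 0.075), IRX1 without day 7 replicate 2 (0.0638), and IRX1 without day 7 replicate 3 (0.159). The count of members called higher was 4 with only the 6 libraries, 5 without day 5 replicate 1, 14 without day 5 replicate 2 and 16 with GC and length trends removed. In the same order of fits 1, 0, 2 and 2 members were called lower. With voom and sample weights 17 were called higher and 4 lower. The fit of all 23 libraries called 0 lower, while 3 fell at an unadjusted p under 0.05.

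Of genes of cardiac mesoderm and of second heart field progenitors, 7 of 24 tested members fell and 1 rose, FGF8 (2.02), with a median log2 change of -0.66. Without day 5 replicate 2 the median was -0.38, with 8 members lower and 2 higher, and without day 5 replicate 3 2 were higher. SNAI2, a repressor active in epithelial to mesenchymal transition, stood at 21.4, 37.7 and 15.4 CPM at day 5 and 6.28, 3.98 and 4.05 at day 7 (log2 change -2.43, SE 0.35, adjusted p = 3.06e-05). MSX1, a homeobox factor, stood at 32.2, 39.0 and 32.8 CPM at day 5 and 12.2, 8.79 and 10.9 at day 7 (log2 change -1.72, SE 0.31, adjusted p = 0.000528). The groups were apart for both genes. TCF21, EOMES and APLNR, the apelin receptor, fell, with log2 changes of -2.7, -1.98 and -1.46, and HOXB1 is given above. PDGFRA, a surface marker of cardiac mesoderm, stood at 383, 814 and 263 CPM at day 5 and 234, 236 and 201 at day 7 and fell (log2 change -1.12, adjusted p = 0.0345). ISL1, a factor of the second heart field, stood at 51.2, 38.9 and 25.8 CPM at day 5 and 54.7, 33.4 and 47.0 at day 7 and was not called (log2 change 0.21, adjusted p = 0.805), nor was KDR (log2 change 0.60, adjusted p = 0.356). APLNR and PDGFRA did not pass with only the 6 libraries (adjusted p = 0.0674 and 0.193), PDGFRA without day 5 replicate 2 (0.328), and APLNR without day 5 replicate 3 (0.0529). PDGFRA did not pass without day 7 replicate 1 (adjusted p = 0.102), APLNR and PDGFRA without day 7 replicate 2 (0.0679 and 0.114), and PDGFRA without day 7 replicate 3 (0.153).

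In energy metabolism, rises were found among genes of phosphotransfer, fatty acid use and the respiratory chain, and most tested members of each list were not called. Of the creatine kinase and myoglobin list 5 of 11 tested members rose. MB, myoglobin, stood at 5.53, 2.02 and 9.44 CPM at day 5 and 73.2, 67.3 and 70.2 at day 7 (log2 change 3.75, SE 0.39, adjusted p = 1.98e-07), and the mitochondrial creatine kinase CKMT2, the creatine synthesis enzyme GATM and the adenylate kinase AK1 rose by 2.15, 1.84 and 1.63. Of the fatty acid uptake and beta-oxidation genes 8 of 24 rose (median log2 change 0.58). FABP3, the heart fatty acid-binding protein, stood at 8.77, 9.06 and 10.9 CPM at day 5 and 72.6, 73.4 and 66.9 at day 7 (log2 change 2.90, SE 0.27, adjusted p = 3.95e-08). The scavenger receptor CD36, the lipase LPL, CPT1A, which carries fatty acids into mitochondria, the ligase ACSL1 and the transporter SLC27A6 rose by 3.98, 2.41, 2.13, 2.06 and 2.02. PDK4, a kinase that inhibits pyruvate dehydrogenase, stood at 0, 0.348 and 0 CPM at day 5 and 8.04, 6.75 and 6.22 at day 7 (log2 change 5.2, SE 0.64, adjusted p = 2.84e-06). Day 5 replicates 1 and 3 had 0 counts of it. It was 1 of 3 of 21 members called higher in the citric acid cycle list, with IDH3A (1.06) and OGDHL (0.84). In glycolysis 2 of 21 rose, the muscle enolase ENO3 (1.34) and hexokinase HK1 (1.09), against 5.32% of all genes. With GC and length trends removed the counts called higher were 14, 12 and 9 for these 3 lists, and with only the 6 libraries 6, 1 and 0. Without day 5 replicate 3 the test called 8 of the citric acid cycle genes higher and 1 lower, and 7 glycolysis genes higher; without day 5 replicate 2 it called 6 citric acid cycle genes higher. ENO3, HK1, IDH3A and OGDHL did not pass with only the 6 libraries (adjusted p = 0.0962, 0.137, 0.135 and 0.339), and OGDHL without day 5 replicate 1 (0.106). OGDHL did not pass without day 7 replicate 2 (adjusted p = 0.0741), and OGDHL without day 7 replicate 3 (0.123).

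Of 56 tested nuclear genes of oxidative phosphorylation, 6 rose and none fell (0 at an unadjusted p under 0.05, 0 by DESeq2), with a median log2 change of 0.26. Over all tested genes 5.32% rose and 5.02% fell. COX6A2 had 1 count at day 5 and stood at 3.33, 6.02 and 4.88 CPM at day 7. The others were COX7B, ATP5MC1, SDHA, ATP5MC3 and ATP5PF, with log2 changes of 0.95, 0.84, 0.80, 0.72 and 0.62. Of the 56 members, COX6A2 alone changed at least 2-fold. The number called higher was 1 with only the 6 libraries, 2, 11 and 15 without day 5 replicates 1, 2 and 3, 2 without day 7 replicate 3 and 19 with GC and length trends removed; DESeq2 called 13, and library totals alone gave 13. Of 13 mitochondrially encoded messenger RNAs edgeR's test called none, 1 passed an unadjusted p of 0.05, and DESeq2 called none (median log2 change 0.25, or 0.08 without day 5 replicate 2). Without day 5 replicate 3, 9 of them rose and the median was 0.78. ATP5MC1, ATP5MC3, ATP5PF, COX7B and SDHA did not pass with only the 6 libraries (adjusted p = 0.321, 0.363, 0.467, 0.18 and 0.323), and ATP5MC1, ATP5MC3, ATP5PF and SDHA without day 5 replicate 1 (0.055, 0.051, 0.0562 and 0.0622). ATP5MC1 and ATP5PF did not pass without day 7 replicate 1 (adjusted p = 0.0532 and 0.0639), and ATP5MC1 and ATP5PF without day 7 replicate 2 (0.0552 and 0.0719). ATP5MC1, ATP5MC3, ATP5PF and SDHA did not pass without day 7 replicate 3 (adjusted p = 0.0617, 0.0613, 0.06 and 0.0549). The mitochondrially encoded messages took 1.64%, 1.21% and 2.12% of raw counts in the day 5 libraries and 2.51% to 2.52% at day 7. On the CPM scale their sums were 15830, 11510 and 22820 at day 5 and 22310, 21680 and 23290 at day 7. These sums overlapped between days.

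The series title names LPIN1, which encodes lipin-1, and mitochondrial biogenesis. LPIN1 stood at 25.2, 31.4 and 11.4 CPM at day 5 and 38.8, 35.9 and 31.3 at day 7 and was not called (log2 change 0.61, SE 0.27, adjusted p = 0.17). Neither were its paralogs LPIN2 and LPIN3 (log2 changes 0.15 and -0.12, adjusted p = 0.786 and 0.869). For LPIN1, day 7 replicate 3 lay just under day 5 replicate 2. Of the regulators of mitochondrial biogenesis listed with the lipins, 4 of 12 tested members rose. PPARGC1A, the coactivator PGC-1 alpha, stood at 4.93, 17.4 and 3.48 CPM at day 5 and 44.1, 54.8 and 40.9 at day 7 (log2 change 2.35, SE 0.40, adjusted p = 0.000207). The estrogen-related receptors ESRRB, ESRRG and ESRRA rose by 2.62, 2.41 and 0.99. ESRRA did not pass with only the 6 libraries (adjusted p = 0.279), ESRRA without day 5 replicate 1 (0.0849), and ESRRA without day 7 replicate 2 (0.0711). ESRRA did not pass without day 7 replicate 3 (adjusted p = 0.0979).

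Among cell cycle genes 23 of 39 tested members fell and 1 rose (median log2 change -1.20). CCND2 (ENSG00000118971, chromosome 12, 4269771 to 4305353, plus strand), a cyclin of the G1 phase, stood at 666, 732 and 221 CPM at day 5 and 95.7, 63.4 and 75.1 at day 7 (log2 change -2.79, SE 0.34, adjusted p = 2.9e-06). E2F1, a transcription factor of the G1 to S transition, stood at 58.9, 37.8 and 118 CPM at day 5 and 13.5, 12.4 and 13.2 at day 7 (log2 change -2.44, SE 0.31, adjusted p = 3.55e-06). Neither gene's libraries overlapped between days, and both calls held without each library and with only the 6 libraries. E2F2, the replication licensing genes CDC6 and MCM5 and the centromere histone CENPA fell, with log2 changes of -1.86, -1.82, -1.61 and -1.58. CDKN1A, the cyclin-dependent kinase inhibitor p21, rose (log2 change 1.01, adjusted p = 0.0454). MKI67 and TOP2A, markers of cycling cells, stood at 78.5, 252 and 49.9 CPM at day 5 and 70.0, 64.6 and 60.6 at day 7 and at 189, 822 and 184 CPM at day 5 and 186, 168 and 168 at day 7. Neither was called, and day 5 replicate 2 alone was high for both. With only the 6 libraries 8 of 39 members fell, without day 7 replicate 2 the number was 14, and with GC and length trends removed 27. CDKN1A did not pass with only the 6 libraries (adjusted p = 0.212), CDKN1A without day 5 replicate 1 (0.129), and CDKN1A without day 5 replicate 2 (0.0576). CDKN1A did not pass without day 7 replicate 1 (adjusted p = 0.0869), CDKN1A without day 7 replicate 2 (0.0842), and CDKN1A without day 7 replicate 3 (0.0703).

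The replication-dependent histone genes, expressed in S phase, are multi-copy genes whose single levels are uncertain. In this list 27 of 36 tested members fell and none rose (0 at an unadjusted p under 0.05, 0 by DESeq2), with a median log2 change of -1.22, or -0.62 without day 5 replicate 3 and -0.72 with day 5 replicate 1 as the only day 5 library. Their summed level was 12900, 10200 and 31660 CPM in the day 5 libraries and 6827, 7693 and 8967 in those of day 7. All day 5 sums were above all day 7 sums, and day 5 replicate 3 was far above the other libraries. H2BC17, H2AC13, H1-5, H2AC16, H4C9 and H2AC14 had the largest log2 changes, from -1.66 to -1.44. The count rested on few libraries: 3 members fell without day 5 replicate 3, 3 and 4 without day 7 replicates 1 and 2, 1 with only the 6 libraries and 31 with GC and length trends removed. H1-5, H2AC13, H2AC14, H2AC16 and H4C9 did not pass with only the 6 libraries (adjusted p = 0.0644, 0.079, 0.1, 0.095 and 0.0909), and H1-5, H2AC13, H2AC14, H2AC16 and H4C9 without day 5 replicate 3 (0.106, 0.109, 0.205, 0.11 and 0.0748). H1-5, H2AC13, H2AC14, H2AC16 and H4C9 did not pass without day 7 replicate 1 (adjusted p = 0.0746, 0.0682, 0.136, 0.0858 and 0.0598), and H1-5, H2AC13, H2AC14 and H2AC16 without day 7 replicate 2 (0.0723, 0.0606, 0.113 and 0.0686). H2AC14 did not pass without day 7 replicate 3 (adjusted p = 0.0589). Histone messages lack a poly(A) tail and are kept in total RNA libraries.

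**Figure D4:**
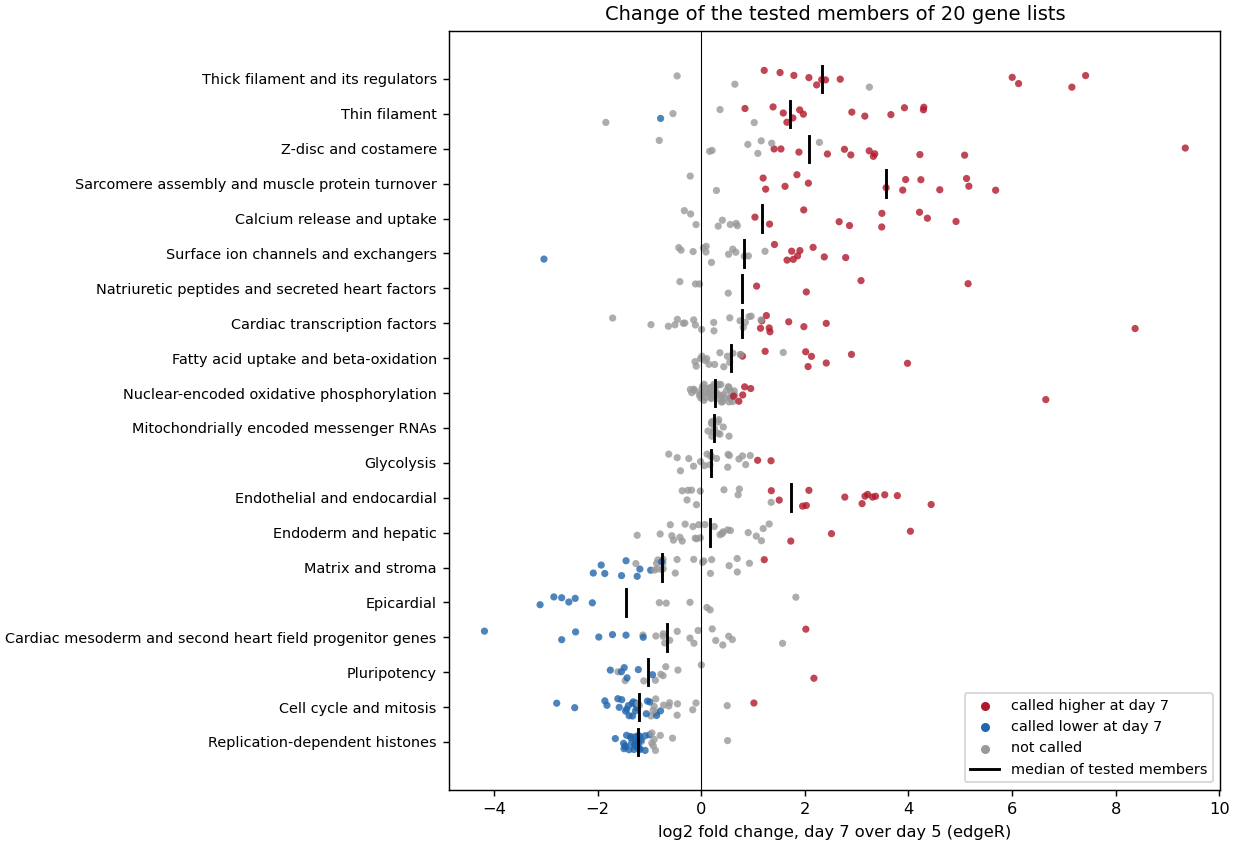
Log2 change from day 5 to day 7 of the tested members of 20 gene lists. Each point is a gene, red where called higher, blue where called lower and grey where not called, with the median as a black bar. Muscle lists have medians up to 3.57, and the cell cycle and histone lists -1.20 and -1.22; genes at 0 to 3 counts on day 5, such as MYPN, IRX4 and COX6A2, have fitted changes that depend on the prior count.

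In the Wnt list 5 of 37 tested members rose and 9 fell, against 5.32% and 5.02% of all genes. Its median log2 change was -0.04, with 0.02 and 0.05 without day 5 replicate 2 and day 7 replicate 3 and 0.12 with library totals alone. WNT11, a non-canonical ligand, stood at 7.33, 5.64 and 9.44 CPM at day 5 and 37.5, 31.0 and 29.4 at day 7 (log2 change 2.16, SE 0.40, adjusted p = 0.000542). RSPO2, a secreted enhancer of Wnt signalling, stood at 8.17, 12.3 and 5.21 CPM at day 5 and 0, 0.241 and 0.207 at day 7 (log2 change -5.60, SE 0.69, adjusted p = 3.17e-06). RSPO2 was near 0 in every day 7 library, whereas its paralog RSPO3 rose (2.06). The antagonist DKK1, the ligand WNT5B and DKK3 rose by 1.91, 1.64 and 1.40. The receptor LGR5, the antagonists SFRP1 and SFRP5 and the feedback gene NKD1 fell, with log2 changes of -1.99, -1.65, -1.57 and -1.27, and WNT8A went from 0.961, 0.767 and 0.993 CPM to 3 counts at day 7. With only the 6 libraries 4 of 30 tested Wnt genes rose and 2 fell. WNT5B, SFRP1, SFRP5 and NKD1 did not pass with only the 6 libraries (adjusted p = 0.0535, 0.0859, 0.0797 and 0.0733).

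In the BMP list 1 of 26 tested members rose and 1 fell, shares no larger than the 5.32% and 5.02% of all genes. BMP7 stood at 43.0, 20.3 and 62.8 CPM at day 5 and 183, 223 and 224 at day 7 (log2 change 2.33, SE 0.30, adjusted p = 4.53e-06), and BMP4 at 147, 140.4 and 117 CPM at day 5 and 70.0, 37.8 and 57.1 at day 7 (log2 change -1.30, SE 0.36, adjusted p = 0.019). These 2 ligands changed in opposite directions. Leaving out day 5 replicate 2 gave 3 rises and 2 falls in the list, leaving out replicate 3 of that day 4 and 3, and removing GC and length trends 5 and 3. In the Notch and FGF list 5 of 32 rose and 7 fell. The ligands FGF18, FGF16 and DLL4 and the feedback inhibitors SPRY4 and SPRY2 rose by 2.96, 2.87, 1.92, 1.13 and 0.77. FGF9, FGF2, the Notch target HEYL and the receptors FGFR1, FGFR2 and FGFR3 fell, with log2 changes of -3.51, -1.61, -1.49, -1.29, -1.17 and -1.03. With only the 6 libraries 3 of 27 rose and none fell, and 3 and 4 fell without day 7 replicates 2 and 3. Of the retinoic acid genes 3 of 16 fell and 1 rose. RDH10, a retinol dehydrogenase, stood at 47.0, 60.5 and 33.5 CPM at day 5 and 9.61, 8.31 and 13.8 at day 7 (log2 change -2.15, SE 0.32, adjusted p = 4.66e-05), CRABP1 and STRA6 fell (-1.52 and -1.09), and ALDH1A1 rose (2.08). BMP4, CRABP1, STRA6, FGF2, FGFR1, FGFR2, FGFR3, HEYL, SPRY2 and SPRY4 did not pass with only the 6 libraries (adjusted p = 0.0772, 0.0922, 0.18, 0.0874, 0.0889, 0.114, 0.254, 0.0689, 0.334 and 0.107), and BMP4, ALDH1A1 and FGFR3 without day 5 replicate 1 (0.0598, 0.0956 and 0.0867). FGF2 did not pass without day 5 replicate 2 (adjusted p = 0.154), CRABP1 and FGFR3 without day 5 replicate 3 (0.0532 and 0.233), and FGFR3 without day 7 replicate 1 (0.181). BMP4, CRABP1, STRA6, ALDH1A1, FGF2, FGFR3 and HEYL did not pass without day 7 replicate 2 (adjusted p = 0.158, 0.0554, 0.141, 0.0775, 0.109, 0.215 and 0.0688), and BMP4, STRA6, FGFR3, HEYL and SPRY2 without day 7 replicate 3 (0.0781, 0.0544, 0.111, 0.05 and 0.0506). FGF9 had too few counts to be tested with only the 6 libraries.

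Matrix and stroma genes had 9 of 30 tested members lower and 1 higher, fibrillin-2 (FBN2, 1.22), with a median log2 change of -0.75, or -0.48 without day 5 replicate 3. TNC, tenascin C, stood at 1388, 976 and 972 CPM at day 5 and 373, 252 and 291 at day 7 (log2 change -1.86, SE 0.28, adjusted p = 5.17e-05). ELN, elastin, LUM, lumican, COL5A2, PDGFRB and COL9A2 fell, with log2 changes of -2.09, -1.93, -1.54, -1.45 and -1.24. TNC was lower in every day 7 library, and its call held with only the 6 libraries and without each library. LUM had 1 of the 10 largest spreads within day 5, 58.9, 249.8 and 35.3 CPM. LUM, COL5A2, PDGFRB, COL9A2 and FBN2 did not pass with only the 6 libraries (adjusted p = 0.102, 0.0874, 0.0633, 0.235 and 0.126), and COL9A2 without day 5 replicate 1 (0.0752). LUM did not pass without day 5 replicate 2 (adjusted p = 0.525), COL9A2 without day 5 replicate 3 (0.336), and COL9A2 without day 7 replicate 1 (0.207). LUM, PDGFRB and COL9A2 did not pass without day 7 replicate 2 (adjusted p = 0.206, 0.0867 and 0.168), and LUM, PDGFRB and COL9A2 without day 7 replicate 3 (0.206, 0.0612 and 0.0769). The number of members that fell was 2 with only the 6 libraries, 3 and 3 without day 7 replicates 2 and 3, 4 with library totals alone, and 5 each with RLE or upper-quartile scaling or a filter of 1 CPM in 3 libraries. The number that rose was 3 without day 5 replicate 2 and 2 without day 5 replicate 1 or replicate 3.

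Of the epicardial genes, 6 of 12 tested members fell and none rose (1 at an unadjusted p under 0.05, 0 by DESeq2), with a median log2 change of -1.46, or -2.40 with only the 6 libraries. WT1, a factor of the epicardium, stood at 9.01, 33.5 and 4.47 CPM at day 5 and 5.10, 1.08 and 0.311 at day 7 (log2 change -3.11, SE 0.68, adjusted p = 0.00346). TBX18 stood at 4.08, 37.5 and 6.71 CPM at day 5 and 2.94, 2.53 and 1.66 at day 7 (log2 change -2.85, SE 0.62, adjusted p = 0.00314), and TCF21, a factor of epicardium and cardiac fibroblasts, at 3.96, 4.18 and 5.21 CPM at day 5 and 1.18, 0.361 and 0.623 at day 7 (log2 change -2.7, SE 0.57, adjusted p = 0.00274). Day 5 replicate 2 was the highest library for WT1 and TBX18, and replicate 1 at day 7 overlapped day 5 for WT1. BNC2, ITGA8 and BNC1 fell as well, with log2 changes of -2.56, -2.44 and -2.10. All 6 calls held with only the 6 libraries, and 1 member rose without day 5 replicate 2. With voom and sample weights 7 members fell and 2 rose. TBX18, BNC2 and BNC1 did not pass without day 5 replicate 2 (adjusted p = 0.142, 0.103 and 0.065), and BNC1 without day 7 replicate 2 (0.0697).

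Of endothelial and endocardial genes, 14 of 24 tested members rose and none fell (0 at an unadjusted p under 0.05, 0 by DESeq2), with a median log2 change of 1.73. For this list voom with sample weights called 16 higher and 2 lower. CDH5, vascular endothelial cadherin, stood at 10.6, 3.97 and 3.73 CPM at day 5 and 52.6, 69.4 and 61.4 at day 7 (log2 change 3.31, SE 0.34, adjusted p = 1.5e-07). PLVAP, a protein of endothelial fenestrae and caveolae, stood at 6.97, 3.21 and 3.97 CPM at day 5 and 42.2, 51.7 and 51.6 at day 7 (log2 change 3.36, SE 0.35, adjusted p = 2.16e-07). TIE1, a receptor of endothelial cells, stood at 4.93, 1.39 and 3.97 CPM at day 5 and 23.3, 31.1 and 35.8 at day 7 (log2 change 3.21, SE 0.44, adjusted p = 1.21e-05). The groups were apart for all 3 genes. EMCN and SOX18 rose by 3.79 and 3.54 at under 4 CPM, and ECSCR went from 1 count at day 5 to 0.785, 1.45 and 0.830 CPM. The summed level of the list was 218, 232 and 204 CPM at day 5 and 430.0, 466 and 496 at day 7. With only the 6 libraries 11 of 21 passed. SOX18 had too few counts to be tested with only the 6 libraries.

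Among markers of other cell types, 3 of 28 tested endoderm and hepatic genes rose and none fell (1 at an unadjusted p under 0.05, 0 by DESeq2). For this list voom with sample weights called 3 higher and 3 lower. Over all tested genes 5.32% rose and 5.02% fell. SERPINA1, alpha-1-antitrypsin, stood at 4.08, 2.86 and 3.73 CPM at day 5 and 59.4, 56.7 and 56.6 at day 7 (log2 change 4.04, SE 0.52, adjusted p = 5.2e-06), and FGG and AMBP rose by 2.51 and 1.73. AFP stood at 8.41, 21.3 and 2.23 CPM at day 5 and 36.3, 30.0 and 17.9 at day 7 and was not called (log2 change 1.31, adjusted p = 0.167). The endoderm factors FOXA1, FOXA2 and HNF4A were above 14 CPM in every library and not called, and 1 member of the list fell without day 5 replicate 2. Smooth muscle genes had 2 of 10 higher, MYH11 (1.71) and LMOD1 (1.02), neural genes 2 of 11, SOX2 (2.17) and NES (1.16), blood genes 1 of 6, CD34 (2.06), and skeletal muscle genes 1 of 5, ACTN3 (2.09). The myogenic factors MYOD1 and MYOG and the blood genes GATA1, SPI1 and HBZ had mean levels under 0.2 CPM on both days and too few counts to be tested. Summed levels of the lists went from 1813, 939 and 2076 to 1634, 1610 and 1844 CPM for endoderm and hepatic genes and from 10.2, 7.25 and 13.9 to 34.9, 32.8 and 37.2 for skeletal muscle genes. The part of these cell types in the results above was not tested. LMOD1 and NES did not pass with only the 6 libraries (adjusted p = 0.171 and 0.0729), and FGG and AMBP without day 5 replicate 1 (0.0753 and 0.0604). AMBP did not pass without day 5 replicate 2 (adjusted p = 0.0587), AMBP without day 7 replicate 2 (0.0542), and FGG and AMBP without day 7 replicate 3 (0.052 and 0.0862).

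Of the pluripotency genes 6 of 16 tested members fell and 1 rose, SOX2. LIN28A, an RNA-binding protein of early cells, stood at 3095, 1654 and 3614 CPM at day 5 and 1153, 1195 and 1248 at day 7 (log2 change -1.22, SE 0.31, adjusted p = 0.0106). L1TD1, TERF1, ZFP42, DPPA4 and DNMT3B had log2 changes of -1.76, -1.54, -1.49, -1.44 and -0.94. Of 12 members tested with only the 6 libraries, 3 fell. POU5F1 was at 20.4, 6.83 and 19.9 CPM at day 5 and 2.16, 11.6 and 2.59 at day 7 and not called. In the stress list 1 of 20 rose, FOS (0.96), and 2 fell, asparagine synthetase ASNS (-2.15) and HMOX1 (-1.22), against 5.32% and 5.02% of all genes. ASNS stood at 199, 201 and 82.2 CPM at day 5 and 41.8, 32.4 and 35.0 at day 7. LIN28A, DPPA4, DNMT3B, FOS and HMOX1 did not pass with only the 6 libraries (adjusted p = 0.0785, 0.0531, 0.236, 0.206 and 0.153), and DNMT3B, FOS and HMOX1 without day 5 replicate 1 (0.0579, 0.0845 and 0.103). HMOX1 did not pass without day 5 replicate 3 (adjusted p = 0.0763), and LIN28A, DNMT3B and HMOX1 without day 7 replicate 1 (0.061, 0.0599 and 0.0688). LIN28A, FOS and HMOX1 did not pass without day 7 replicate 2 (adjusted p = 0.0641, 0.128 and 0.195), and LIN28A, DNMT3B and HMOX1 without day 7 replicate 3 (0.0507, 0.0501 and 0.0561).

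Of 3995 tested long non-coding RNAs, 194 rose (4.86%) and 68 fell (1.70%). Of 15622 tested protein-coding genes, 906 rose (5.80%) and 1011 fell (6.47%). MIR122HG, the host transcript of a microRNA, stood at 2.04, 1.6 and 0.497 CPM at day 5 and 17.5, 29.6 and 23.3 at day 7 (log2 change 3.95, SE 0.63, adjusted p = 0.000172). The next largest rises among those with at least 5 CPM were UNC5B-AS1 (3.31), ENSG00000226900 (3.05), ENSG00000282556 (2.71) and MIR100HG (2.68). LINC01356 stood at 24.4, 7.74 and 25.3 CPM at day 5 and 1.57, 1.32 and 1.35 at day 7 (log2 change -3.74, SE 0.48, adjusted p = 4.76e-06), and the other largest falls were ENSG00000265174 (-3.52), MIR924HG (-1.93), ENSG00000261061 (-1.91) and HOXB-AS1 (-1.47). HOXB-AS1 lies in the HOXB cluster with HOXB1. Since the strand setting of the counting is not given in the sources used here, antisense and overlapping genes cannot be told apart from their partners. HOXB-AS1 did not pass without day 7 replicate 2 (adjusted p = 0.0647).

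Set in the full course, the genes of this comparison followed several patterns. MYH7 stood at 0.234 ± 0.0328 CPM at day 3, 1055 ± 210.1 at day 10 (n = 2) and 17920 ± 4566 at day 28 (mean ± SD, n = 3 otherwise), with a higher mean on each later day. MYL3 stood at 814 ± 49.6 at day 10 and 681 ± 22 at day 14, close to its day 7 level of 722 ± 103. CKM stood at 457 ± 31.1 at day 14 and 197 ± 42.5 at day 28. CGA had its highest level at day 7, 122 ± 33.5, with 23.3 ± 1.14 left at day 10 and 1.06 ± 0.859 at day 14. CDH5 also had its highest level at day 7, 61.1 ± 8.41, against 1.24 ± 0.169 at day 3 and 1.12 ± 0.321 at day 28. HOXB1 was highest at day 5, 69.8 ± 14.3, from 9.81 ± 4.28 at day 3. CCND2 was at its lowest at day 7, 78.1 ± 16.4, and at 727 ± 40.5 at day 28, whereas E2F1 was at 13 ± 0.576 at day 7 and lower at day 14, 4.15 ± 0.665.

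**Figure D5:**
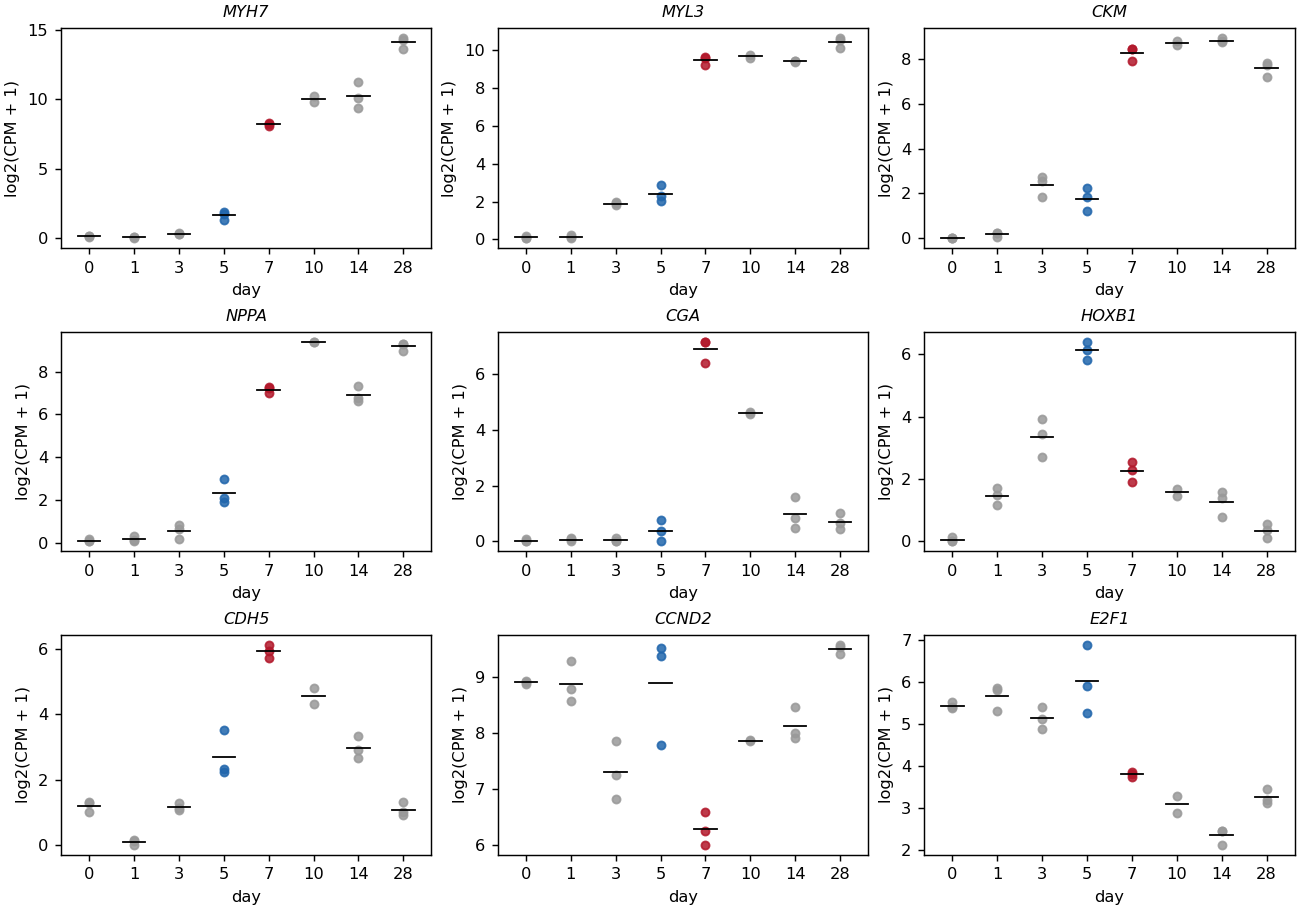
Levels of 9 genes over the 8 days as log2(CPM + 1). Points are libraries (blue day 5, red day 7, grey other days) and bars are means. MYH7, MYL3, CKM and NPPA rise from day 5 to day 7 and stay above day 5 later, CGA and CDH5 are highest at day 7, HOXB1 is highest at day 5, and CCND2 is lowest at day 7.

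Of the 10 genes with the largest spread among the day 5 libraries, LUM alone was called. Of all 22245 tested genes 10.3% were called, so this share is not particular to these genes. SEPTIN11 stood at 58.1, 350.1 and 39.2 CPM in day 5 replicates 1, 2 and 3, a ratio of 8.92 between highest and lowest. CPS1, RLIM, API5, DSG2, PEG3, LUM, AKAP12 and SERINC1 had ratios of 7.79, 7.62, 7.57, 7.29, 7.21, 7.08, 6.95 and 6.82. In each of these 9 genes replicate 2 was the highest library and replicate 3 the lowest. This order was not the most frequent one among the 3123 genes that differed at least 2-fold within day 5. Of those, 1577 had replicate 3 highest and replicate 2 lowest, and 1197 had replicate 2 highest and replicate 3 lowest. The long non-coding RNA ENSG00000281181 stood at 0.240, 0 and 890.0 CPM, so that a single library held nearly all of its counts.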

How the data were processed

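The deposited table holds raw read counts per gene for 23 libraries of ribosomal RNA-depleted, stranded, paired-end total RNA, made by the authors. Trim Galore 0.65 was used for trimming, STAR 2.7.0 for alignment (GRCh38, GENCODE v38) and HTSeq-count for counting, per the submitters' processing notes; the strand setting is not given in the sources used here. Of 57521 genes, 44 pseudoautosomal Y copies with 0 counts were left out; GENCODE v44 gave a symbol and position for 56387 of the rest. Groups followed the day in the labels.

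Day 7 against day 5 was a contrast in edgeR's quasi-likelihood fit (edgeR 4.0.16, R 4.3.3) of all 23 libraries with day as a factor, TMM scaling and filterByExpr with a minimum count of 10, which left 22245 genes. Genes were called at a Benjamini-Hochberg adjusted p under 0.05. The SE beside a log2 change is the size of that change divided by the square root of its F statistic. The alternatives were other scalings and filters, DESeq2 1.42.0, voom with sample weights (limma 3.58.1), the 6 libraries alone, a replicate block and each library left out. The fits with GC and gene length trends removed, and with day 5 replicate 1 as the only day 5 library, were chosen after seeing the data.

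The text names MYH7, MYL3, CKM and the 3 lipin genes. It also names the 15 largest called rises and falls that reached 20 CPM and did not overlap, the 5 largest of long non-coding RNAs with at least 5 CPM, and the 10 genes with the largest ratio between day 5 libraries at a mean of at least 50 CPM. From each of 33 gene lists it names up to 6 called members in each direction, and members needed for a role. Genes and lists were chosen with earlier results of these data known. Of 716 list members 714 matched the table. On simulated counts for 21541 genes with the depths of this comparison, the test called 99 of 100 genes with a true 4-fold change, 24 of 100 with a 2-fold change and 5 unchanged genes. The changed genes were drawn only from genes with a mean of at least 5 CPM at day 5. The detection rates therefore do not cover genes below that level at day 5, such as MYH7, MYPN and IRX4. The simulated spread was estimated over all 23 libraries and drawn for each gene by itself, without the spread along GC content seen within day 5. Total counts of 4330334 to 22089595 per library limit the precision for genes near 1 CPM.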

Additional observations from a re-analysis of the deposited data

How the results depend on the processing

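Against 1184 genes higher and 1117 lower, voom with sample weights called 4497 and 4643, only the 6 libraries 528 and 227, the GC and length correction, chosen after seeing the data, 2523 and 2302, and library totals alone 707 lower. Leaving out 1 library gave 879 to 2227 higher and 432 to 1808 lower. The remaining scalings, filters and DESeq2 moved these 2 totals by less than 1.5 times, though not every list count.

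Same-numbered libraries of the 2 days correlated in their deviations from the day means at 0.0247, 0.131 and 0.320, and not each correlated best with its own number, so the numbers were not taken to pair libraries. With a replicate block the counts were 1147 and 993, and 651 and 251 with only the 6 libraries.

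Of 221 called genes followed in every fit, 132 passed under every alternative and none changed direction. The most calls were lost with only the 6 libraries (64), with the replicate block on the 6 libraries (54), with day 5 replicate 1 as the only day 5 library, chosen after seeing the data (45), and without day 7 replicate 2 (37). With GC and length trends removed, ATP5MC3, LUM and NRG1 were lost (adjusted p = 0.179, 0.0873 and 0.0825).

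Of uncalled genes, 7 changed direction, and the cause was not tested. NPPB was at 0.0849 with library totals alone, 0.0216 without the filter, 0.27 with voom, 0.0823 with the replicate block on the 6 libraries, 0.61 without day 5 replicate 3, 0.13 without day 7 replicate 1, 0.24 and 0.20 with GC and length trends removed on all and on 6 libraries, and 0.30 with day 5 replicate 1 alone. LPIN3 was at 0.0589, 0.16, 0.44, 0.0812, 0.12, 0.0988 and 0.16 in the same order of fits, leaving out the filter and the block. ISL1 was at -0.21 with voom, -0.0019 without day 5 replicate 3 and -0.18 with day 5 replicate 1 alone, and LPIN2 at -0.21, -0.18 and -0.26. Without day 5 replicate 2, MKI67 was at 0.11 and TOP2A at 0.0118. TBX5 was at -0.0052 with the replicate block and -0.13 without day 5 replicate 1. With 1 library left out at a time the log2 changes ranged from -0.0019 to 0.46 for ISL1, -0.18 to 0.41 for LPIN2, -0.35 to 0.44 for LPIN3, -1.35 to 0.11 for MKI67, -0.34 to 0.61 for NPPB, -0.13 to 0.15 for TBX5 and -1.54 to 0.0118 for TOP2A.

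The self-test called 24 of 100 genes changed 2-fold, all drawn from genes with at least 5 CPM at day 5. Among such genes, changes of that size or less were often not detectable at the simulated depth and spread. Genes below that level were not covered. The simulated spread was pooled over all 23 libraries and drawn for each gene by itself. It lacked the shared spread of the day 5 libraries along GC content, so these numbers need not hold for this comparison.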
